A study of Mus musculus with 21 samples.

Results

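The genes described here are 10 transcripts that astrocytes raise when they become reactive: Gfap, Vim, Stat3, Osmr, Socs3, Serpina3n, Lcn2, Cd44, Tnc and Hspb1. They were taken by gene symbol from a table of raw counts for 22058 genes, and all 10 had a row. The comparison asks how far a reactive state reached beyond Gfap in the brain of mutant mice, and how it varied from mouse to mouse. RNA came from the anterior right hemisphere of 21 C57Bl6/J mice, 9 eIF2B HOM and 12 wild-type, and reads were taken from the 3' end of polyadenylated RNA. The eIF2B HOM mice carry the Eif2b5[R191H] knock-in on both alleles, in every cell, to model the leukodystrophy Vanishing White Matter Disease (VWMD), and the wild-type mice carry none. Per the study's methods both genotypes came from heterozygous breeding. The eIF2B HOM group held 5 females and 4 males aged 93 to 114 days, and the wild-type group held 7 females and 5 males aged 90 to 114 days. Batch 1 held 4 eIF2B HOM mice aged 105 to 114 days and 8 wild-type mice aged 104 to 114 days. Batch 2 held 5 eIF2B HOM mice aged 93 to 104 days and 4 wild-type mice aged 90 to 92 days, so in batch 2 genotype cannot be told apart from age. Mice are numbered within a genotype by order of deposition, and the number only names the mouse.

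Astrocytes respond to injury, inflammation or disease in the brain with a change of state called reactivity. They enlarge, build more intermediate filament from GFAP and vimentin, and in many settings switch on genes downstream of cytokines of the interleukin-6 family. Those cytokines bind receptors such as the oncostatin M receptor (Osmr), whose kinases phosphorylate the transcription factor STAT3. STAT3 then raises target genes that include its own gene, its feedback inhibitor Socs3, and Gfap. Serpina3n and Lcn2 encode secreted proteins that rise strongly in astrocytes after inflammation, Cd44 encodes a receptor for hyaluronan, Tnc encodes the matrix glycoprotein tenascin C, and Hspb1 encodes a small heat shock protein. VWMD is a disease of white matter in which astrocytes are affected, and eIF2B, the factor mutated in it, recycles the translation initiation factor eIF2.

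The eIF2B HOM libraries held 727018 to 2918902 counts with a median of 1209719, the wild-type libraries held 827862 to 3100141 with a median of 1270017, and 5 of the 21 lay under 1000000. All 13 astrocyte markers were detected and passed the filter on low counts, which does not test the labelled brain region. Transcripts of olfactory bulb projection neurons (Eomes, Tbx21, Cdhr1 and Doc2g) summed to more than 30 CPM (counts scaled to 1000000 per library) in 4 libraries, eIF2B HOM mouse 1 and wild-type mice 3, 5 and 6, at 40.4 to 54.9 CPM. Results below were also computed without these 4 libraries.

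Among the reactive astrocyte genes, Gfap, Stat3 and Tnc were higher in eIF2B HOM mice, and none was lower. The other 7 did not pass a test. At this depth only Gfap, Vim and Stat3 passed the filter on low counts, with at least 10 counts in every mouse, and 2 of these 3 were called higher by edgeR's quasi-likelihood test at an adjusted p under 0.05 over 9192 genes. The same test called 2.62% of all genes tested higher and 1.7% lower. To give the other 7 genes a test, the fit was repeated with no filter beyond 1 count in all mice. It called 3 of the 10 higher (Gfap, Stat3 and Tnc), against 1.59% of 16644 genes, and none of the 10 lower, against 0.847%. An exact permutation test of the mean CPM over all 293930 splits of the mice, adjusted over the same 16644 genes, called the same 3 of 10, against 0.865% of genes higher. The same 3 were past an unadjusted p of 0.05 in that test, against 5.11% of genes higher. For none of the 10 were the groups fully apart, against 0.3% of genes. In bulk tissue, more cells of a type and more RNA per cell cannot be told apart.

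**Figure D1:**
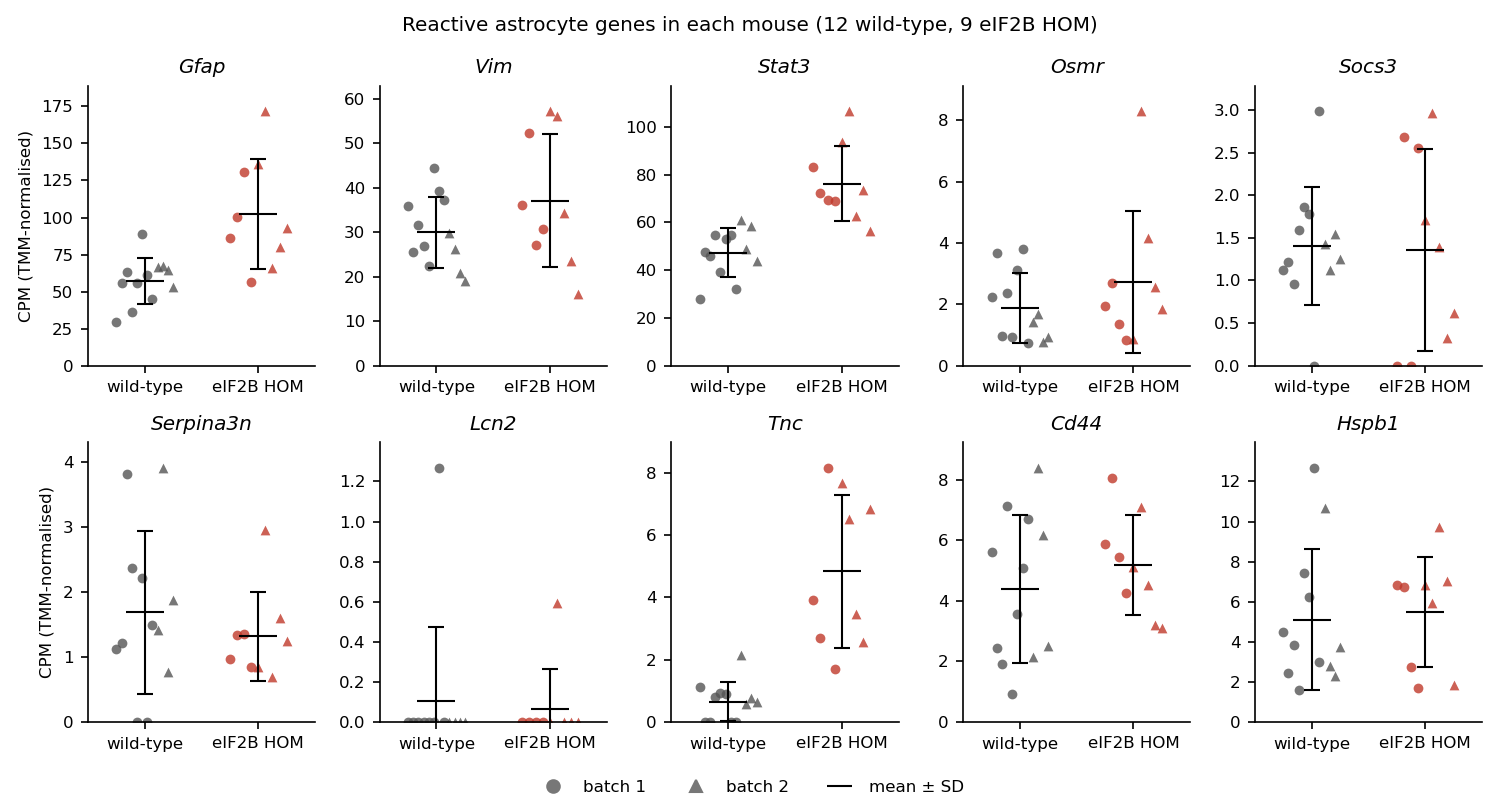
Level of each of the 10 genes in every mouse, in CPM on linear axes that start at 0 and differ between panels. Points are mice (circles batch 1, triangles batch 2, wild-type grey, eIF2B HOM red), and the line with bars is the mean ± SD. For Stat3 and Tnc 8 of the 9 mutants lie above every wild-type mouse, for Gfap 5 of 9, and for Socs3, Serpina3n, Lcn2, Cd44 and Hspb1 none do.

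The promoters of the genes that were higher are shown beside that of Socs3, a classical STAT3 target that was not called. Socs3 had 18 counts in eIF2B HOM and 25 in wild-type mice, so a rise like that of Gfap could have been missed. The windows hold 250 bases before and 50 bases after the RefSeq start on GRCm38.p6, 5' to 3' along the gene's strand, and all 10 genes matched the RefSeq table. They were searched on both strands for the STAT motif TTCNNNGAA and for TGATGNAA, a core of the composite site of ATF4 and CHOP, which are transcription factors of the integrated stress response (ISR). Capitals mark a STAT match.
Gfap (chr11:102897151-102897450, minus strand): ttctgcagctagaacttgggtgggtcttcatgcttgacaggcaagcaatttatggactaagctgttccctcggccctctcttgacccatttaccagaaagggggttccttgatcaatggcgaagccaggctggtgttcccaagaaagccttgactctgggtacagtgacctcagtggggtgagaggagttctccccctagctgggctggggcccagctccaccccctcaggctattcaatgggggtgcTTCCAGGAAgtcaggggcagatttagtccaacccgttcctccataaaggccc
Socs3 (chr11:117969317-117969616, minus strand): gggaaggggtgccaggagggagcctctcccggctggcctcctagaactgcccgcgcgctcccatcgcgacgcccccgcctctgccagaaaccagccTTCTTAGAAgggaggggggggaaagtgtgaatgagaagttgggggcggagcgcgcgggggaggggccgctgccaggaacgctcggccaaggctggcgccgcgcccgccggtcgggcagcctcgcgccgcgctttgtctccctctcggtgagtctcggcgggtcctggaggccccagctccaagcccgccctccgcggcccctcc
Stat3 (chr11:100939491-100939790, minus strand): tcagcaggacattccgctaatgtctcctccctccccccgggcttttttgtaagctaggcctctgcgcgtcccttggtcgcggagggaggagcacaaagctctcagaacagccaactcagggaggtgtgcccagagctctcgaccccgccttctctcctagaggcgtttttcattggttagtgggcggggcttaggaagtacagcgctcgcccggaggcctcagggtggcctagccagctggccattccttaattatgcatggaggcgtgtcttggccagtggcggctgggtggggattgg
Tnc (chr4:64046887-64047186, minus strand): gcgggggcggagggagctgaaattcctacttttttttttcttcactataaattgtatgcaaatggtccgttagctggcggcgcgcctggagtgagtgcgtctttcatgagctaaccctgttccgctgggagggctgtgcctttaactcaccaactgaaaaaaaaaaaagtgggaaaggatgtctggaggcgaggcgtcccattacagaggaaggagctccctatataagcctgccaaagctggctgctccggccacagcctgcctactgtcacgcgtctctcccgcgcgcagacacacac
Gfap holds TTCCAGGAA from position -2 and Socs3 holds TTCTTAGAA from position -154, counted from the RefSeq start. For both genes that start lies inside the gene as the deposited annotation places it. Tnc has another, overlapping RefSeq window, not shown, which holds no match either. This motif is in 8.30% of the 32851 RefSeq promoters, and among the 10 genes only Gfap and Socs3 do in these windows. The ATF4 and CHOP core was in none of the windows of the 10 genes, against 3.97% of all promoters. A match describes letters and is not evidence of binding, and the absence of a match says nothing about the factor.

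Gfap and Vim encode the intermediate filament proteins whose build-up defines a reactive astrocyte under the microscope. Gfap (ENSMUSG00000020932, chromosome 11, 102887336 to 102900912, minus strand) lay at 56.2 (lowest), 93.0 (median) and 172 CPM (highest) in eIF2B HOM mice and at 29.2, 58.5 and 88.8 CPM in wild-type mice. The groups overlapped, since 5 of 9 mutants lay above every wild-type mouse and 8 of 9 above the wild-type median. The means were 102 ± 37.2 CPM (SD, n = 9) and 57.3 ± 15.6 CPM (SD, n = 12), and edgeR put the log2 fold change at 0.78 (SE 0.17, adjusted p = 0.00797). The exact permutation test of the CPM difference gave p = 0.000405 and an adjusted p of 0.0417, and reassigning mice within batches only gave an exact p of 0.000898. Over the 17 alternative settings other than leaving out a mouse, the log2 fold change of Gfap ran from 0.61 to 0.95. The call did not hold in all of them. It was lost with limma voom, the study's tool, on the same 21 libraries and 9192 genes (0.61, adjusted p = 0.0685), with batch added to age and sex (0.63, adjusted p = 0.100), and without the 5 libraries under 1000000 counts (0.69, adjusted p = 0.0949), which are eIF2B HOM mice 2 and 3 and wild-type mice 1, 2 and 7. The study's methods set a minimum of 1000000 total counts per sample, while its figure legend gives 9 and 12 mice. The main fit here kept all 21 libraries.

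Vim lay at 16.1 (lowest), 34.4 (median) and 57.1 CPM (highest) in eIF2B HOM mice and at 19.1, 28.4 and 44.4 CPM in wild-type mice. The highest 3 values of all 21 mice were eIF2B HOM mice and so was the lowest, so the mutant range enclosed the wild-type range. The log2 fold change was 0.29 (SE 0.15, adjusted p = 0.329 from edgeR, unadjusted p = 0.0594), and the exact permutation p was 0.172. Vim therefore did not pass, and over the 17 alternative settings other than leaving out a mouse its log2 fold change ran from 0.09 to 0.45 without passing in any. Of 6 other genes of filament and linker proteins, 4 were tested and none was called (median log2 fold change 0.14, against -0.01 over all tested genes). Plec, which encodes the cytolinker plectin, was at 0.32 (SE 0.10, adjusted p = 0.0710), and Synm, which encodes the filament protein synemin, at -0.16 (SE 0.10, adjusted p = 0.460).

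Stat3 was the member with the smallest edgeR p among the 3 tested with the filter. Stat3 (ENSMUSG00000004040, chromosome 11, 100885098 to 100939540, minus strand) lay at 56.4 (lowest), 72.5 (median) and 107 CPM (highest) in eIF2B HOM mice and at 28.1, 48.1 and 61.2 CPM in wild-type mice. Only eIF2B HOM mouse 9 fell inside the wild-type range, and 10 of 12 wild-type mice lay below every eIF2B HOM mouse. The means were 76.3 ± 15.7 CPM (SD, n = 9) and 47.3 ± 10.2 CPM (SD, n = 12), the log2 fold change was 0.67 (SE 0.12, adjusted p = 9.0e-05 from edgeR), and the exact permutation test gave an adjusted p of 0.00315. Of all alternatives only batch 2 alone lost the call (0.49, adjusted p = 0.0755). Exons of Stat3 overlap those of Stat5a on the other strand in the annotation, and since the strand setting of the counting is not given in the sources used here, reads of that stretch cannot be assigned with certainty. Stat5a had 21 counts over all mice, against 1062 for Stat3 in eIF2B HOM and 818 in wild-type mice.

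Osmr and Socs3, which lie on either side of STAT3 in the pathway, did not pass the test after adjustment. Gfap, also a target of STAT3, was called higher in the main fit, as described above. Osmr, the receptor upstream, had 44 counts over the 9 eIF2B HOM mice and 30 over the 12 wild-type mice, and lay at 0.851 (lowest), 1.95 (median) and 8.28 CPM (highest) against 0.746, 1.55 and 3.81 CPM. The unfiltered fit put its log2 fold change at 0.79 (SE 0.38, unadjusted p = 0.0404, adjusted p = 0.370 from edgeR), and the exact permutation p was 0.313. The ratio of its pooled CPM was 1.78, with a 95% interval from 1.09 to 2.93 that covers counting error only. Mouse 6 alone held 14 of the 44 counts. Without that mouse the difference of mean CPM fell from 0.843 to 0.148 CPM (exact permutation p = 0.773). Socs3, the feedback inhibitor downstream, had 18 counts in eIF2B HOM and 25 in wild-type mice, with means of 1.36 ± 1.18 CPM (SD, n = 9) and 1.40 ± 0.69 CPM (SD, n = 12), and an exact permutation p of 0.915. The ratio of its pooled CPM was 0.872, with a 95% interval from 0.448 to 1.66 that covers counting error only, so a change of that size in either direction was not detectable at this depth. Of 17 further genes of interleukin-6 family signalling 7 were tested and none was called (median log2 fold change 0.10). Among them Il6st, which encodes the shared receptor subunit gp130, was at 0.28 (SE 0.12, adjusted p = 0.247), and Jak1, a receptor-bound kinase, at 0.12 (SE 0.08, adjusted p = 0.476).

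The secreted proteins that mark a strong inflammatory response of astrocytes were near the floor in both genotypes. Serpina3n, a serine protease inhibitor, had 19 counts in eIF2B HOM and 32 in wild-type mice, at 0.695 (lowest), 1.24 (median) and 2.96 CPM (highest) against 0, 1.46 and 3.92 CPM. Only 2 of 9 eIF2B HOM mice lay above the wild-type median, and the exact permutation p was 0.442. The ratio of pooled CPM was 0.719, with a 95% counting interval from 0.385 to 1.31. The 9 other Serpina3 genes in the table had 0 counts. How reads that map to more than 1 gene were counted is not given in the sources used here. The 0 counts therefore do not show whether Serpina3n lost reads shared with a paralog. Lcn2, which encodes the iron-siderophore binding protein lipocalin 2, had 1 count in eIF2B HOM mouse 6 and 1 in wild-type mouse 7. The ratio of its pooled CPM, 1.21, has a 95% counting interval from 0.0154 to 95.1, so no difference in Lcn2 could be measured. Of 34 other genes named as markers of reactive astrocytes, 10 were tested and none was called in either direction (median log2 fold change 0.05). S100a10, a calcium binding protein, was at -0.24 (SE 0.14, adjusted p = 0.396), and Cp, which encodes the copper oxidase ceruloplasmin, was at 0.31 (SE 0.20, adjusted p = 0.477).

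**Figure D2:**
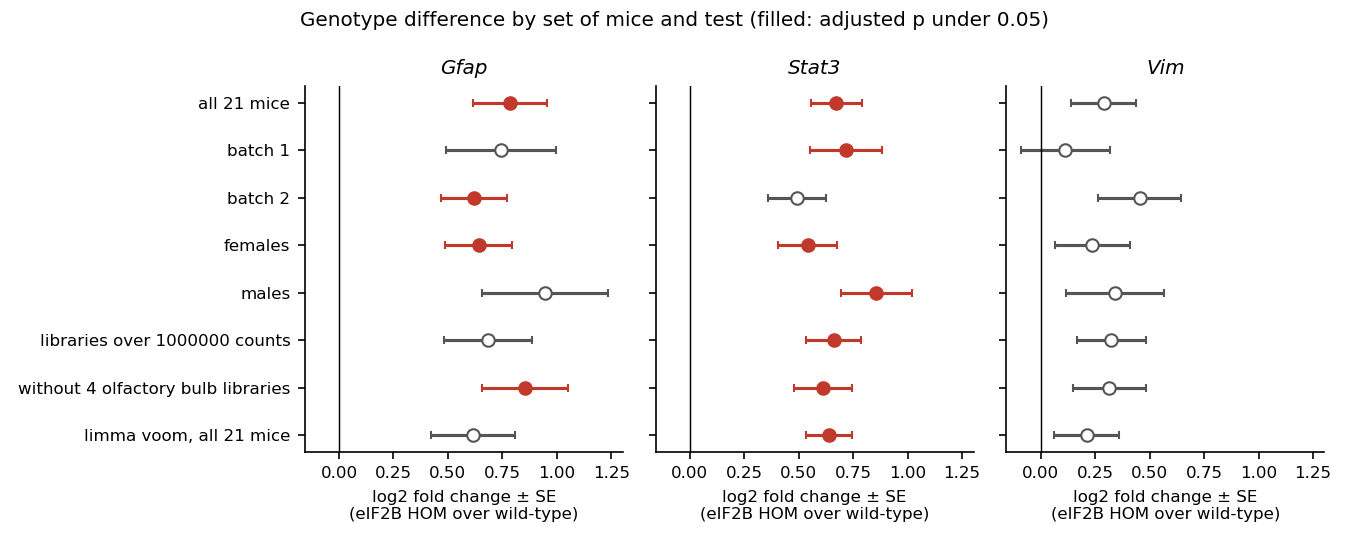
Log2 fold change of eIF2B HOM over wild-type mice for Gfap, Stat3 and Vim (x axis, bars are SE) by set of mice or test (y axis), filled red where the adjusted p was under 0.05. All estimates for Gfap lie between 0.61 and 0.95 but only some are filled, those for Stat3 lie between 0.49 and 0.86, and none is filled for Vim.

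Tnc differed most in fold between the genotypes among the 10 genes. Tenascin C is a matrix glycoprotein of the developing brain that is low in most of the adult brain and returns in reactive astrocytes and in wounds. Tnc (ENSMUSG00000028364, chromosome 4, 63959785 to 64047015, minus strand) had 63 counts over the 9 eIF2B HOM mice and 12 over the 12 wild-type mice. It lay at 1.70 (lowest), 3.91 (median) and 8.15 CPM (highest) in eIF2B HOM mice and at 0, 0.698 and 2.14 CPM in wild-type mice, 4 of which had 0 counts. The only overlap was between eIF2B HOM mouse 4 at 1.70 CPM and wild-type mouse 9 at 2.14 CPM. Of all 16644 genes with a count, 0.505% had at least 8 of the 9 mutants above every wild-type mouse.

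The means of Tnc were 4.83 ± 2.45 CPM (SD, n = 9) and 0.652 ± 0.625 CPM (SD, n = 12), and the exact permutation test gave an adjusted p of 0.00183. The edgeR fit without the filter put the log2 fold change at 2.62 (SE 0.41, adjusted p = 1.5e-06), a size that depends on the prior count for so low a gene. The ratio of pooled CPM was 6.36, with a 95% counting interval from 3.4 to 13.0. Leaving out any 1 mouse kept the difference between 3.76 and 4.57 CPM, with exact permutation p-values of at most 1.59e-05. Within batch 1 all 4 eIF2B HOM mice lay above all 8 wild-type mice (4.11 ± 2.84 against 0.467 ± 0.508 CPM, exact permutation p = 0.00202), and within batch 2 all 5 lay above all 4 (5.41 ± 2.25 against 1.02 ± 0.747 CPM, exact permutation p = 0.0159). Exons of Tnc overlap the transcript 8030451A03Rik on the other strand, which is not analysed here, and without a stated strand setting its reads cannot be told apart from those of Tnc.

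Cd44, the hyaluronan receptor that also binds other matrix proteins, did not show a difference like that of Tnc. It lay at 3.1 (lowest), 5.12 (median) and 8.05 CPM (highest) in eIF2B HOM mice and at 0.931, 4.31 and 8.40 CPM in wild-type mice, so every mutant lay inside the wild-type range. Its log2 fold change without the filter was 0.16 (SE 0.28, adjusted p = 0.878 from edgeR), and the exact permutation p was 0.404. Among 12 other genes of the brain matrix and of CD44 ligands, 8 were tested, none was higher and 1 was lower (median log2 fold change -0.04). That gene was Sparc, which encodes a secreted matrix protein of glia and vessels, at -0.38 (SE 0.10, adjusted p = 0.0146).

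Hspb1, the small heat shock protein, averaged 5.48 ± 2.76 CPM (SD, n = 9) in the mutants and 5.10 ± 3.52 CPM (SD, n = 12) in the controls, with an exact permutation p of 0.793. Its means went opposite ways in the sexes. Mutant females averaged 6.43 ± 2.84 CPM (SD, n = 5) and wild-type females 3.03 ± 1.03 CPM (SD, n = 7, exact permutation p = 0.0139), with 4 of 5 mutants above every wild-type female. Mutant males averaged 4.29 ± 2.46 CPM (SD, n = 4) and wild-type males 8.0 ± 3.80 CPM (SD, n = 5, exact permutation p = 0.111). The test of the difference between the sexes, male minus female, gave -1.82 on the log2 scale (SE 0.54, unadjusted p = 0.000967), which did not survive adjustment over all genes (adjusted p = 1 from edgeR without the filter). Of 11 other heat shock genes 8 were tested, none was higher and Cryab, the relative of Hspb1 that encodes alpha B-crystallin, was lower by the test, at -0.56 (SE 0.10, adjusted p = 0.000362).

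Neither sex nor batch changed the genotype difference of the filament genes or Stat3 beyond its error. Of 9192 genes, 0 passed the genotype by sex test and 0 the genotype by batch test in edgeR. For Gfap the difference between the sexes was 0.29 (SE 0.35, unadjusted p = 0.414) and for Stat3 0.29 (SE 0.23, unadjusted p = 0.221), both with the larger fold in males. In males alone Gfap reached 0.95 (SE 0.29, adjusted p = 0.302) and in females alone 0.64 (SE 0.15, adjusted p = 0.0232), where edgeR called 0.811% and 1.32% of genes higher. In batch 1 Gfap was at 0.74 (SE 0.25, adjusted p = 0.325) and in batch 2 at 0.62 (SE 0.15, adjusted p = 0.0348), where 0.832% and 0.961% of genes were called higher. Among the 10 genes Osmr had the smallest unadjusted p for a difference between the batches. The batch 2 mutants averaged 3.54 ± 2.91 CPM (SD, n = 5) beside 1.2 ± 0.42 CPM in their controls (SD, n = 4), and the batch 1 mutants averaged 1.71 ± 0.79 CPM (SD, n = 4) beside 2.23 ± 1.24 CPM (SD, n = 8). The genotype by batch term for Osmr was 1.92 (SE 0.88, unadjusted p = 0.0286) and did not survive adjustment (adjusted p = 1 from edgeR without the filter).

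The eIF2B HOM mice differed among themselves, for Gfap over about the same fold range as the wild-type mice. Gfap varied 3.05-fold between the lowest and the highest mutant and 3.04-fold between the lowest and the highest wild-type mouse. Among the mutants it had a coefficient of variation of 36.4%, where counting error alone would give 8.88%. In wild-type mice the coefficient of variation of Gfap was 27.3%, against 12.0% from counting. After removal of batch means the SD of log2 CPM of Vim was 2.00 times as large in mutant as in wild-type mice, a ratio above that of 97.2% of the tested genes. This spread went together with sex and age in batch 2. There the 2 mutant males of 101 and 104 days were at 57.1 and 56.2 CPM. The 3 mutant females of 93 days were at 34.4, 23.6 and 16.1 CPM, while the wild-type mice of that batch spanned 90 to 92 days. In batch 1 the order of the sexes was the other way. The mutant females of 113 and 114 days were at 36.2 and 52.3 CPM there. The mutant males of 105 and 108 days were at 27.2 and 30.7 CPM. In both batches the sex with the higher Vim was also the older. The 2 batch 2 males were also the highest mutants of that batch for Gfap (136 and 172 CPM) and Stat3 (93.8 and 107 CPM). The 3 mutant females there were at 66.0 to 93.0 CPM and 56.4 to 73.4 CPM. In batch 1 the mutant males spanned 56.2 to 130 CPM for Gfap, around the females at 86.0 and 101 CPM. For Stat3 the batch 1 females were the higher, at 83.1 and 72.5 CPM against 69.3 and 69.0 CPM. The part of sex and age in these spreads was not tested. The same ratio of SDs was 1.29 for Gfap, above 79.0% of tested genes, and 0.93 for Stat3, above 48.4%, beside a median of 0.945 over all tested genes. Stat3 was thus the steadiest of the 3 among mutants, at a coefficient of variation of 20.6%. For the rare genes counting error was a large part of the spread or exceeded it. Osmr varied by 85.2% among mutants where counting gives 54.4%. Tnc varied by 50.8% among mutants where counting gives 40.9%, and Serpina3n by 51.7% where counting gives 78.2%.

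**Figure D3:**
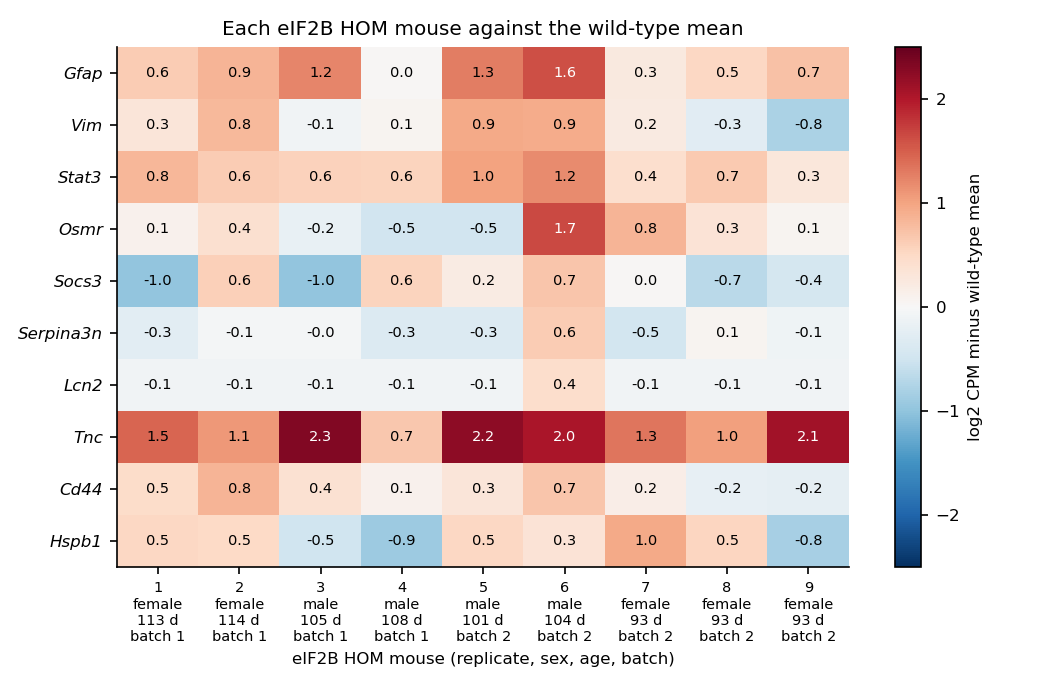
Each eIF2B HOM mouse (columns, with sex, age and batch) against the wild-type mean for each of the 10 genes (rows), as log2 CPM minus the mean of the 12 wild-type mice, red above and blue below. The Stat3 and Tnc rows are above the wild-type mean in all 9 mice, while Vim ranges from -0.80 in mouse 9 to 0.94 in mouse 5 and mouse 6 stands above the mean in every row.

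Mouse 6, a male of 104 days in batch 2, stood at one end. It ranked first among the 9 mutants for 6 of the 10 genes (Gfap, Stat3, Osmr, Socs3, Serpina3n and Lcn2) and first or second for 8. Its first ranks for Socs3 and Serpina3n rested on 5 counts each. That for Lcn2 rested on 1 count, with every other mutant at 0. Mouse 6 lay above the wild-type median for all 10, which for Lcn2 was 0, and above every wild-type mouse for 5. Mouse 4, a male of 108 days in batch 1, stood at the other end. It ranked last for Gfap, Osmr, Tnc and Hspb1, and it lay above every wild-type mouse for 1 gene, Stat3. The last ranks of mouse 4 for Osmr, Tnc and Hspb1 rested on 1, 2 and 2 counts, so they are open to counting error. Its Gfap, at 56.2 CPM, was below the wild-type median of 58.5 CPM. Mouse 9, a female of 93 days, ranked low for some genes and high for Tnc. It was lowest of the mutants for Vim, Stat3 and Cd44 and among the highest 3 for Tnc, at 6.82 CPM. Its Cd44 and Tnc values rested on 5 and 11 counts, so these ranks are open to counting error.

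Without mouse 6 Gfap and Stat3 kept their calls, and over the fits that leave out each of the 21 mice in turn the log2 fold change of Gfap stayed between 0.67 and 0.87 (adjusted p at most 0.0200 from edgeR) and that of Stat3 between 0.60 and 0.72. The library of mouse 6 held 1574403 counts, within the range of the others. Its summed CPM over the 13 astrocyte markers was 10500, inside the eIF2B HOM range of 9443 to 14780, and its microglial sum was 544 CPM in a range of 475 to 668.

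Across mice of a genotype the other genes were set against Gfap on log2 CPM with the batch mean removed, and 24 such relations were computed. None passed after adjustment (lowest adjusted p = 0.353). Among the 9 eIF2B HOM mice Tnc had the highest r with Gfap (Pearson r = 0.79, exact permutation p = 0.0264, Spearman rho = 0.75, exact permutation p = 0.0420), and without the 2 mice farthest in Gfap r was 0.77 (exact permutation p = 0.0903). In the 12 wild-type mice Tnc and Gfap had r = -0.18 (permutation p = 0.593, rho = -0.33, permutation p = 0.298). Cd44 had r = 0.67 with Gfap in eIF2B HOM mice (exact permutation p = 0.0792, rho = 0.58, exact permutation p = 0.133), which fell to 0.17 without the 2 farthest mice. Osmr had r = 0.25 (exact permutation p = 0.575, rho = 0.27, exact permutation p = 0.537), which turned to -0.91 without those 2 mice (exact permutation p = 0.0278). In the mutants left Osmr had 1 to 12 counts per mouse, so that value rests on levels near the floor. Stat3 had r = 0.65 with Gfap in eIF2B HOM mice (exact permutation p = 0.103, rho = 0.68, exact permutation p = 0.0750), which fell to 0.44 without the 2 farthest mice, and r = 0.60 in the 12 wild-type mice (permutation p = 0.0778, rho = 0.38, permutation p = 0.267). Vim had r = 0.49 in eIF2B HOM mice (exact permutation p = 0.233, rho = 0.45, exact permutation p = 0.268). Serpina3n had r = 0.63 there (exact permutation p = 0.0830), which fell to 0.11 without the 2 farthest mice. The mean log2 CPM of the ISR targets also had r = 0.63 in eIF2B HOM mice (exact permutation p = 0.0941, rho = 0.57, exact permutation p = 0.150), which fell to 0.10 without the 2 farthest mice. That of a wider list of olfactory bulb markers had r = 0.62 in wild-type mice (permutation p = 0.0547), 0.35 without the 2 farthest mice, and r = 0.12 in eIF2B HOM mice (exact permutation p = 0.773).

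**Figure D4:**
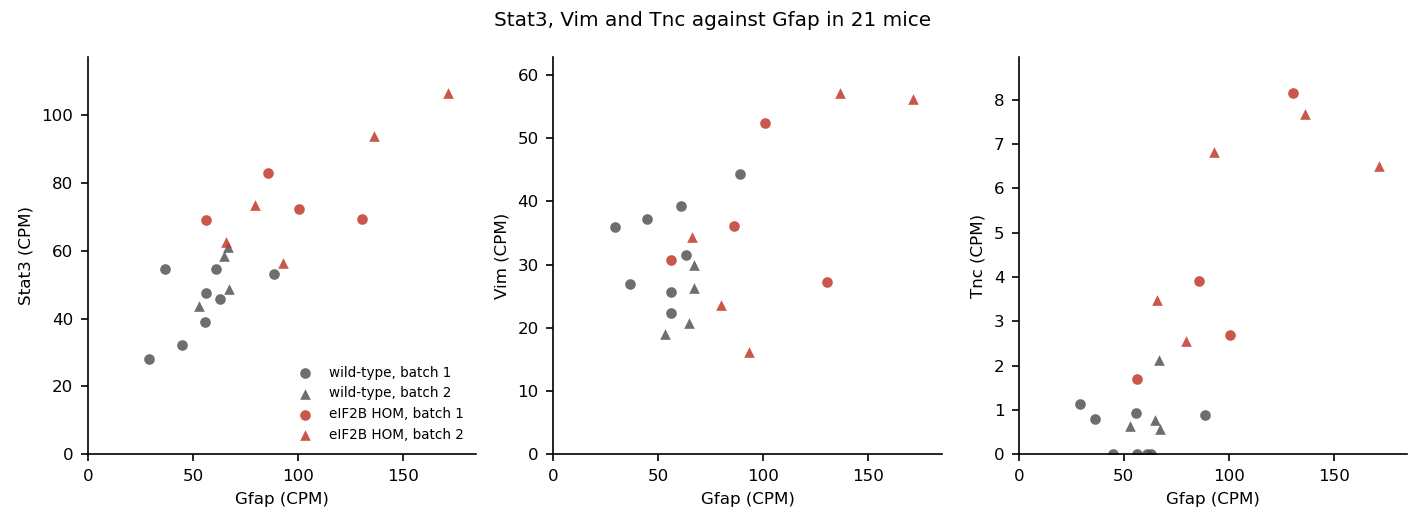
Stat3, Vim and Tnc (y axes, CPM) against Gfap (x axis, CPM) in the 21 mice, by genotype (colour) and batch (shape). The 3 mutants with the highest Gfap hold the highest Stat3 values (mice 5 and 6) and the highest Tnc (mouse 3), but mouse 3 has a Vim value of 27.2 CPM, inside the wild-type range.

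As a description over all 21 mice, after subtracting the mean of each genotype and batch from log2 CPM, the tested genes most like Gfap were Csmd1 (r = 0.82), a large membrane protein that regulates complement, Acbd3 (r = 0.77), a Golgi scaffold, Clec16a (r = 0.72), which acts in mitophagy, Acadvl (r = 0.72), an enzyme of fatty acid oxidation, and Ccdc141 (r = 0.70). None of these 5 was called between the genotypes. Stat3 ranked 22 of 9191 genes by this measure (r = 0.61) and Vim 355 (r = 0.40). The points share their libraries and depth.

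Gfap, Stat3 and Tnc rose while the markers of mature astrocytes did not rise together. Of the 13 astrocyte markers tested, 1 was higher and 2 were lower, with a median log2 fold change of -0.07. Slc1a2, the glutamate transporter GLT1 that clears glutamate at synapses, had a log2 fold change of -0.76 (SE 0.10) and an adjusted p of 1.06e-06 from edgeR. S100b, a calcium binding protein, fell by 0.39 (SE 0.08, adjusted p = 0.00180), and Atp1b2, a subunit of the sodium pump, rose by 0.33 (SE 0.09, adjusted p = 0.0170). The summed CPM of the list was 9443 to 14780 in eIF2B HOM (median 12280) and 12270 to 17710 in wild-type mice (median 15650).

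Markers of other cells that can express members of the list were also measured. None of 10 microglial genes tested was called (median log2 fold change 0.18, summed 475 to 668 CPM in eIF2B HOM and 378 to 720 CPM in wild-type mice), and none of 8 endothelial and pericyte genes was called (median 0.03, summed 291 to 399 and 303 to 406 CPM). Fibroblast and meningeal genes, which can accompany Tnc, Vim and Cd44, summed to 16.3 to 82.7 CPM in eIF2B HOM and 17.8 to 57.7 CPM in wild-type mice, and none of the 2 tested was called. Of 9 myelin genes 4 were lower (median -0.45), with sums of 4084 to 6979 CPM and 4564 to 11180 CPM. Their part in the results for Gfap, Stat3 and Tnc was not tested. All 9 ISR targets tested were higher (median log2 fold change 2.35), so the differences of Gfap and Stat3 were smaller than the median of that list.

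**Figure D5:**
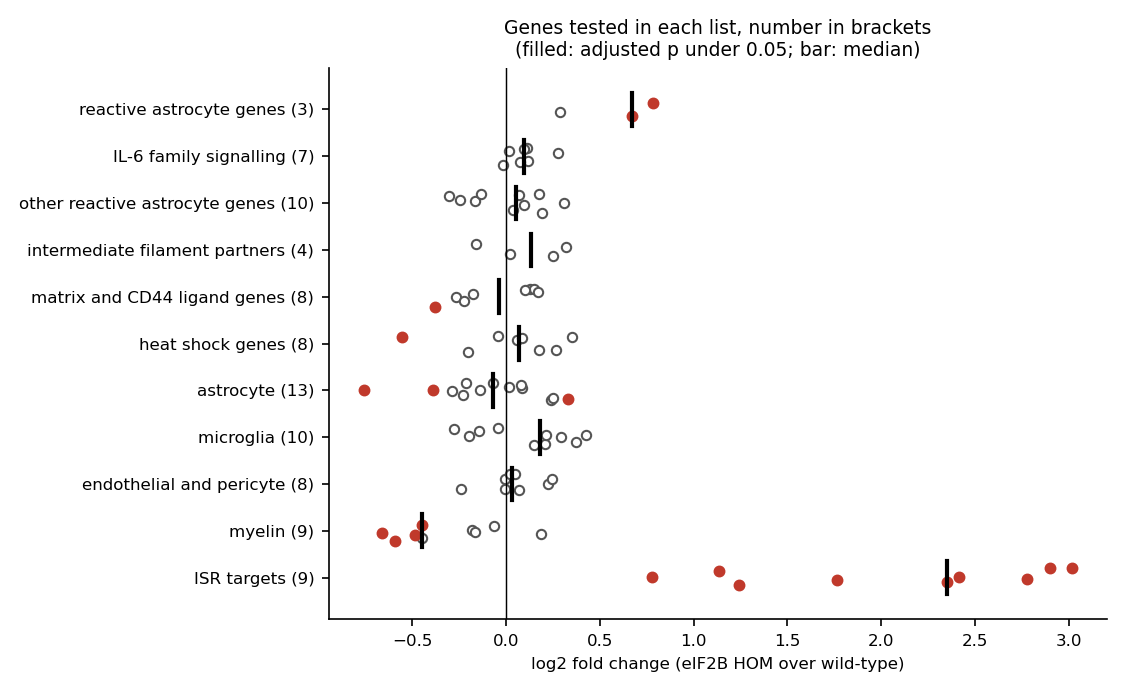
Log2 fold change (x axis) of every tested gene in 11 lists (y axis, number tested in brackets), filled red where the adjusted p from edgeR was under 0.05, with a black bar at each list's median. The ISR targets are all filled, at a median of 2.35, and the 10 genes tested of the wider list of reactive astrocyte markers hold no filled point. The top line shows the 3 of 10 reactive astrocyte genes that passed the filter.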

How the data were processed

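RNA from 21 mice was sequenced with QuantSeq 3' FWD libraries that carry unique molecular identifiers, which let PCR duplicates be removed. The authors trimmed reads with skewer, aligned them with STAR to GRCm38.p6 with Gencode gene models and counted them per gene with featureCounts (Subread 1.6.2). They deposited raw counts of 22058 genes, with values from 100 upward kept to 2 significant digits only. A sheet of CPM values and a sheet of annotation were not used for values.

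Group, sex, age and batch came from the sample labels, and all columns matched a sample. The labels name no separate litters, so no mice were paired. There were no duplicate columns, and even the 2 most similar libraries within a genotype differed beyond sampling noise (chi-square p = 2.02e-11 over 8278 genes). From the counts, edgeR 4.0.16 in R 4.3.3 fitted genotype with sex and age (filterByExpr by genotype, TMM, robust quasi-likelihood, Benjamini-Hochberg over 9192 genes, adjusted p under 0.05). CPM values are scaled by TMM, with a prior count of 2 on the log2 scale. Each SE is the absolute log2 fold change over the square root of F. Exact permutation tests are 2-sided, over 293930 splits of the mice or 62370 within batches. In wild-type mice 100000 shuffles gave the permutation p of a correlation. Intervals of pooled counts are exact 95% intervals and cover counting error only. On simulated counts at these depths edgeR found 97 of 98 genes with a planted log2 change of 1 and 62 of 99 with one of 0.5, and made 9 calls among 8923 unchanged genes. The simulation drew only genes that passed the filter on low counts and held no sex, age or batch effect. It does not cover the genes that failed the filter. Gene positions are from the deposited annotation, and promoters from RefSeq.

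The 10 genes and all comparison lists were chosen with earlier results of these data known, and all 10 are named. Of each other list the genes that passed, up to 4, or the 2 with the smallest p were eligible. Alternatives were limma 3.58.1 voom, DESeq2 1.42.0, other scaling factors, filters and covariates, each batch and sex alone, low libraries left out and each mouse left out. Leaving out the olfactory bulb libraries and the alternatives of the CPM difference were added after seeing the data. Some genes of the marker lists were not analysed here.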

Additional observations from a re-analysis of the deposited data

Results flagged for a closer look

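For 3 of the 10 genes, 1 eIF2B HOM mouse stood apart from the other 8 by Dixon's test at 95%, and it was mouse 6 for all 3. The test's rate of about 1 of 20 groups by chance holds for continuous values. That rate does not apply to counts this low. For Osmr mouse 6 was at 8.28 CPM and mouse 7 followed at 4.17 CPM, a gap that took up a share of 0.554 of the whole range. For Serpina3n, at 2.96 CPM against 1.6 CPM, the share was 0.602. For Lcn2 it was 1.0, since that mouse held the only count in the group, and any single count would have given this value. These values rest on 14, 5 and 1 counts. Gfap and Stat3, also highest in mouse 6, did not stand apart by this test, with gaps of 0.305 and 0.254 of the range.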

How the results depend on the processing

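No paired analysis was possible because the labels give the mice no shared number or litter. The count of higher genes, 2 with the filter, was 1 with limma voomWithQualityWeights, with age, batch and sex, in batch 1, batch 2 or males alone, and without libraries under 1000000 counts, and it was 2 in all fits that left out 1 mouse. No gene of the 10 was lower in any fit that tested it, and most fits tested only Gfap, Vim and Stat3. Gfap missed the threshold at 0.61 (voom), 0.63 (age, batch and sex), 0.74 (batch 1), 0.95 (males) and 0.69 (without low libraries), and stayed past it at 0.67 to 0.87 when single mice were left out. Its CPM difference missed it in batch 2 alone (46.4 CPM, exact permutation p = 0.0635), and so did that of Stat3 (25.5 CPM, exact permutation p = 0.0635). Without the olfactory bulb libraries Gfap was at 0.85 (adjusted p = 0.0220 from edgeR) and Stat3 at 0.61 (adjusted p = 0.00466). The CPM differences of genes that passed no test changed sign in some settings. Osmr was at -0.52 CPM in batch 1. Socs3 was at 0.0645 CPM in batch 2, 0.196 CPM in males and 0.168 CPM without the olfactory bulb libraries, and ran from -0.244 to 0.125 CPM without single mice. Serpina3n was at 0.479 CPM in males. Cd44 was at -0.196 CPM in batch 2 and -0.0359 CPM without the olfactory bulb libraries. Hspb1 was at -0.716 CPM in batch 1, -3.71 CPM in males and 3.4 CPM in females, and ran from -0.152 to 1.07 CPM without single mice. Gfap and Stat3 in wild-type mice had r = 0.75 without the 2 mice farthest in Gfap (permutation p = 0.0251). The cause of these changes was not tested. Lcn2, with 2 counts in all, was left out of the alternatives. Depth limits 7 of the 10 genes, which had 1 to 87 counts over the mutants.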
